A study of Mus musculus with 4 samples.

Results

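Inhibitory checkpoint receptors are membrane proteins that damp lymphocyte activation once they meet their ligands on a neighbouring cell. The 10 genes described here were Pdcd1 (PD-1), Ctla4, Lag3, Tigit, Havcr2 (TIM-3), Btla and Cd160, which encode receptors, and Cd200, Cd274 (PD-L1) and Pdcd1lg2 (PD-L2), which encode ligands. They were chosen by name, with earlier results of these data known, from the 32285 genes of the files, and all 10 were present in them. They were followed in 5 cell gates of draining lymph node cells from 4 libraries, 2 labelled Control and 2 labelled EV treated.

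All mice were wild-type C57BL/6. The EV group received a total of 100 µg of extracellular vesicles from induced pluripotent stem cells (iPSC EVs, membrane vesicles that these cells shed) by subcutaneous injection, and the nodes were taken after 5 days. The study's methods give PBS injections for the controls and 5 days for both groups, whereas the sample labels give no treatment for the controls and a duration of 24 h. The methods count the libraries as biological replicates, and neither the number of mice behind a library nor the age of the mice is given in the sources used here. Each library was made with a droplet method in which poly(A) RNA receives a cell barcode and a unique molecular identifier (UMI), so that each captured molecule is counted as 1 UMI.

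Checkpoint genes differ in when and where they are used. CTLA-4 competes with CD28 for CD80 and CD86 and is held at high levels by regulatory T cells (Tregs). PD-1, LAG-3, TIGIT and TIM-3 are induced on activated T cells and persist on chronically stimulated ones, PD-1 also marks follicular helper T cells, and BTLA and CD160 bind the same partner, HVEM (Tnfrsf14).

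A cell had to hold between 200 and 5000 genes, no more than 20000 UMIs and less than 10% mitochondrial UMIs. This left 8141 and 7891 cells in control libraries 1 and 2 and 8164 and 8529 cells in EV libraries 1 and 2. The libraries summed to between 50749656 and 70418672 UMIs, and any pair of them shared 11 to 24 cell barcodes, which is 0.139% to 0.294% of the cells kept. The CD4 T cell gate (Cd3e and Cd4 UMIs, none of Cd8a, Cd79a or Foxp3) held 1288 and 1531 control and 869 and 1202 EV cells. The Treg gate (Foxp3 and Cd3e UMIs) held 213, 172, 117 and 134 cells in the same order of libraries. The CD8 T cell gate (Cd3e and Cd8a, none of Cd4 or Cd79a) held 1682, 1861, 1003 and 1355 cells, and the B cell gate (Cd79a without Cd3e) 3016, 2503, 4866 and 4301 cells. The dendritic cell gate (Fscn1 without Cd3e) was small, with 72, 123, 94 and 87 cells. No gate uses a checkpoint gene. A few cells met 2 gates, 6 to 16 a library the Treg and CD8 gates and 17 to 21 the B and dendritic cell gates, and these were counted in both. The gates were checked against other markers. Between 64.5% and 72.7% of the cells of the Treg gate held Il2ra, the high-affinity IL-2 receptor chain, while 8.14% to 17.9% held the B cell gene Cd79b and 5.98% to 9.86% held Cd8a. The dendritic cell gate was mixed. Between 37.5% and 55.2% of its cells held Ccr7, the homing receptor of migratory dendritic cells, and 13.8% to 29.2% held Cd79b, so it is called the Fscn1+ gate below.

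The promoter sequences of 3 members are shown with what a search for 3 motifs found there. The motifs were TGANTCA (bound by AP-1 and BATF), GGTGTGA (bound by T-box factors such as EOMES and T-bet) and TGCTGAC (a site bound by MAF), searched on both strands in the 250 bases before each RefSeq start, and no pair of matches overlapped. Of 32851 RefSeq promoters, 6.75% hold the first, 3.33% the T-box and 3.81% the MAF motif. Of the 9 members with a RefSeq promoter (Lag3 had no entry), Havcr2 held TGANTCA 200 bases before its start and Cd160 held GGTGTGA 189 bases before a start inside its gene model. The other members held none, which says only that these letters are not in this window. Havcr2 and Cd160 are printed because of these matches, and Cd200 because it changed in 2 gates in opposite directions. The sequences are from GRCm38.p6 (the mm10 build of the files), 5′ to 3′ on the gene's strand, with the matched motif in capitals.
Havcr2 (chr11:46454681-46454930, plus strand): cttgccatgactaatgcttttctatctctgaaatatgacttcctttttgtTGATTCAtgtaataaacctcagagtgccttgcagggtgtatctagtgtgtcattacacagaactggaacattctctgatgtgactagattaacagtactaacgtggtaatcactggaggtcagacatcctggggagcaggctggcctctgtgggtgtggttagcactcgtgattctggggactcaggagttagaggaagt
Cd160 (chr3:96814522-96814771, minus strand): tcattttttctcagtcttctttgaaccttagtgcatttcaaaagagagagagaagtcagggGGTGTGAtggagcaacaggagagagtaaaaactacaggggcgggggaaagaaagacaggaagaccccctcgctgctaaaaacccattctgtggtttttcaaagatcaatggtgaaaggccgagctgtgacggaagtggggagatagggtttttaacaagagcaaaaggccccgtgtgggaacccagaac
Cd200 (chr16:45409054-45409303, minus strand): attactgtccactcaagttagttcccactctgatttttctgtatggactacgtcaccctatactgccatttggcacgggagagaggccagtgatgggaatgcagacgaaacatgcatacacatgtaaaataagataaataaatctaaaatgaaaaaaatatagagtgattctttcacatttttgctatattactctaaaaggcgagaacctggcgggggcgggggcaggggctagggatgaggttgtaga
In the GENCODE annotation of the same build none of these bases lies in an exon of the gene they precede, and the Cd160 window lies in an intron. Cd200 (chromosome 16, 45382135 to 45409053, minus strand) and Btla (chromosome 16, 45224315 to 45257670, plus strand) are neighbours with no protein-coding gene in the 124 kb between them. Cd274 and Pdcd1lg2 lie 22.8 kb apart on chromosome 19, again with none between. Lag3 (chromosome 6, 124904361 to 124911705, minus strand) lies 16.1 kb from Cd4, a gene used in the gates.

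The share of each gene's UMIs that each gate held differed between the members. Such a share depends on the number of cells in a gate as well as on the level per cell. CD4 T cells held 55.2% of the 596 Pdcd1 UMIs, and Tregs held 38.7% of the 9061 Ctla4 and 39.8% of the 201 Tigit UMIs. CD8 T cells held 57.8% of the 2114 Cd160 UMIs. B cells, the most numerous gate, held 74.4% of the 86144 Btla, 66.9% of the 8608 Cd200, 51.9% of the 10882 Cd274 and 75.9% of the 4847 Pdcd1lg2 UMIs. Cells of no gate held 43.5% of the 393 Havcr2, 39.1% of the 612 Lag3 and 34.7% of the Cd160 UMIs. For Lag3 the pooled share hides a difference between the groups, since CD4 T cells held 7.59% and 8.47% of its UMIs in the control and 48.6% and 49.3% in the EV libraries.

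**Figure D1:**
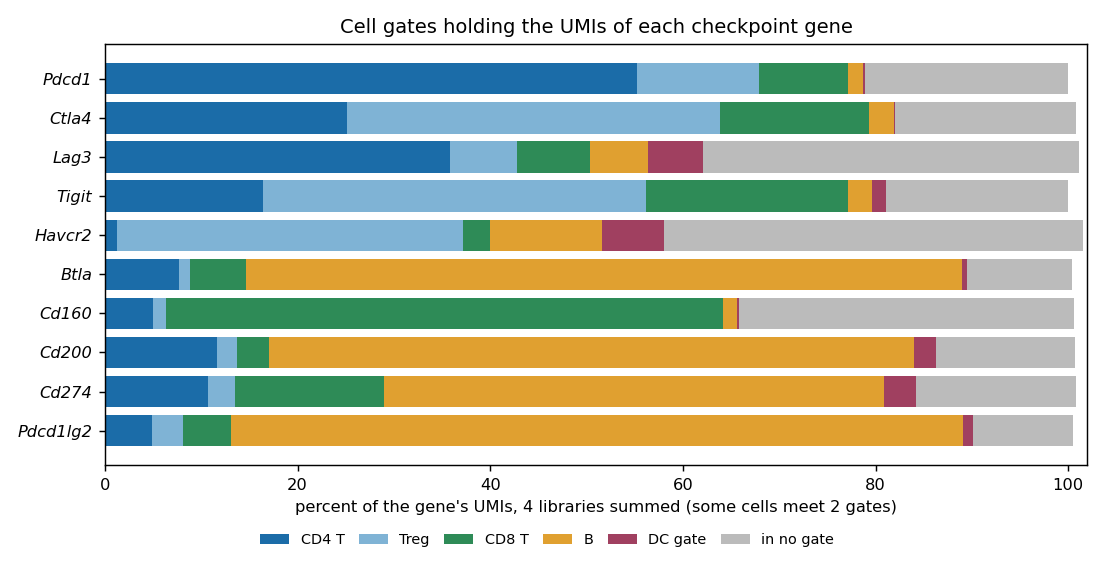
Horizontal bars give the percent of each gene's UMIs, summed over the 4 libraries, that lay in each cell gate or in no gate; the Fscn1+ gate is marked DC gate, and cells that meet 2 gates make some bars end above 100. B cells hold most Btla and Pdcd1lg2 UMIs (74.4% and 75.9%), CD8 T cells most Cd160 UMIs (57.8%).

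Levels were next compared between gates. UMIs were summed per gate and library and scaled to UMIs per 1000000 UMIs (CPM) with TMM factors over the 20 sums, and each pair of gates was tested with edgeR's quasi-likelihood test with library as a block, Benjamini-Hochberg adjusted over 13782 genes. Levels below are CPM as mean ± SD over the 4 libraries, both groups together.

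The CTLA-4 and TIGIT receptors were highest in Tregs. Ctla4 reached 663 ± 193 (SD, n = 4) CPM in Tregs against 65.9 ± 17.0 in CD4 T cells and 28.9 ± 2.71 in CD8 T cells, with a log2 difference between Tregs and CD4 T cells of 3.31 (SE 0.14, edgeR adjusted p = 2.3e-14). B cells (2.89 ± 0.79 CPM) and the Fscn1+ gate (3.67 ± 3.43) were lowest and did not differ from each other beyond their spread (adjusted p = 0.84). Tigit, a receptor for the nectin family member PVR, was at 14.8 ± 3.58 CPM in Tregs and at or below 1.07 CPM in every other gate. The Fscn1+ gate, CD4 T cells and CD8 T cells did not differ beyond their spread in Tigit (adjusted p from 0.71 to 0.89).

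Pdcd1 was shared by Tregs (14.5 ± 7.51 CPM) and CD4 T cells (9.75 ± 4.35), which did not differ beyond their spread (adjusted p = 0.073), and was at 1.14 ± 0.18 in CD8 T cells. In B cells it was at 0.11 ± 0.03 CPM, with between 1 and 3 UMIs in a library. The depth cannot tell such a level from free RNA in the droplets.

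Havcr2, which is also known from macrophages and dendritic cells, had its highest mean in Tregs, with an SD above the mean. The 4 libraries gave 9.49 and 16.6 CPM (control) and 79.8 and 9.08 CPM (EV) in Tregs, so that EV library 1 alone set the mean of 28.7 ± 34.2. The Fscn1+ gate followed with 9.28 ± 10.0 CPM, not different from Tregs (adjusted p = 0.13). CD4, CD8 T cells and B cells held at most 0.50 CPM.

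Among the 5 gates Cd160 was highest in CD8 T cells, at 25.2 ± 1.31 CPM in the narrowest relative spread of any member's leading gate. It was 3.06 log2 units higher there than in CD4 T cells, with an SE of 0.20 and an edgeR adjusted p of 2.5e-11. A mean of 14.5% of control and 16.1% of EV CD8 T cells held a Cd160 UMI. Some cells outside the gates, described below, had a higher level (138 ± 64.6 CPM). Tregs, CD4 T cells and the Fscn1+ gate followed in that order at 5.48, 2.98 and 1.62 CPM, and neighbours in this order did not differ beyond their spread (adjusted p from 0.17 to 0.42).

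Lag3, whose product binds MHC class II, was highest in the Fscn1+ gate (14.8 ± 5.21 CPM), followed by Tregs (8.45 ± 5.26) and CD4 T cells (6.81 ± 7.05), which did not differ beyond their spread from one another (adjusted p from 0.086 to 0.60). In CD8 T cells (0.94 ± 0.43) and B cells (0.45 ± 0.10) it was lower over the 4 libraries. The place of CD4 T cells in this order came from the EV libraries (14.7 and 10.9 CPM). In the control libraries CD4 T cells were at 0.76 and 0.96 CPM and CD8 T cells at 1.57 and 0.73, so these overlapped.

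Btla was highest in B cells, at 750 ± 87.2 CPM against 194 ± 33.3 in CD4 T cells (log2 difference 1.96, SE 0.12, edgeR adjusted p = 3.0e-13). Every gate held Btla, and the lowest, CD8 T cells, was still at 103 ± 6.11 CPM. Pdcd1lg2, a PD-1 ligand, was also highest in B cells (44.7 ± 6.97 CPM), then in Tregs (28.9 ± 3.77) and the Fscn1+ gate (22.1 ± 7.32), which did not differ from each other (adjusted p = 0.38). Cd200, whose product signals to the receptor CD200R on myeloid cells, was highest in the Fscn1+ gate (83.3 ± 27.5) and B cells (70.8 ± 15.3), again without a difference between these (adjusted p = 0.50). Cd274, the broadest PD-1 ligand, was highest in the Fscn1+ gate (148 ± 35.0 CPM), 1.15 log2 units above B cells (SE 0.15, edgeR adjusted p = 5.0e-07), and lowest in CD8 and CD4 T cells (34.3 and 33.9 CPM, adjusted p = 0.91).

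Over the 10 members, the number whose level differed at an adjusted p under 0.05 was 5 between Tregs and CD4 T cells, where 23.9% of all genes did, and 6 between CD8 and CD4 T cells (25.2% of all genes). It was 9 between B and CD4 T cells (62.9%) and 6 between the Fscn1+ gate and CD4 T cells (57.7%). All 10 differed between CD8 T cells and Tregs (32.5%), 9 between B cells and Tregs (47.4%) and 5 between the Fscn1+ gate and Tregs (46.6%). The remaining pairs gave 8 for B against CD8 T cells (65.4%), 8 for the Fscn1+ gate against CD8 T cells (58.9%) and 6 for the Fscn1+ gate against B cells (52.2%). For the pairs with B cells or the Fscn1+ gate these counts stand against a background of near or above 50% of genes. The pairs within T cells have the lower background.

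**Figure D2:**
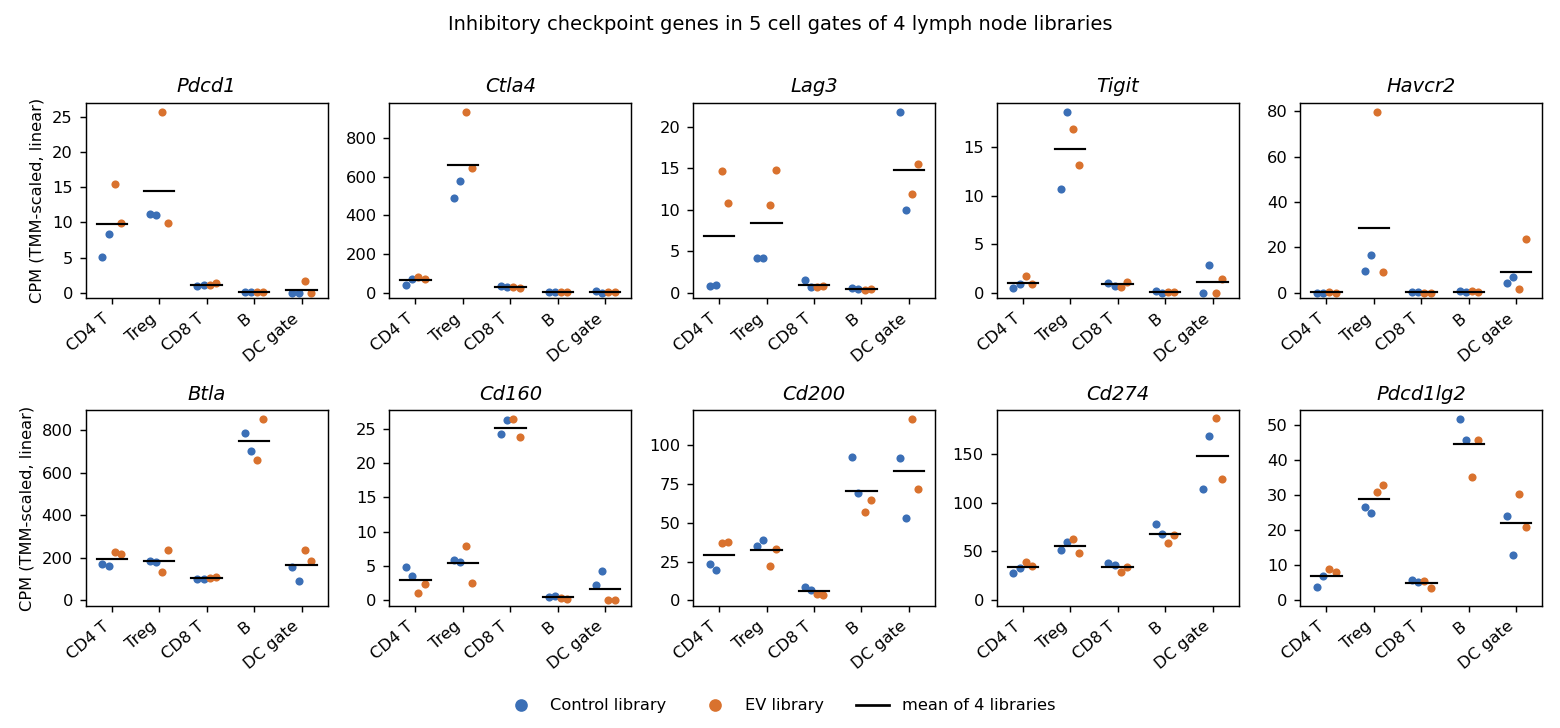
Each panel is 1 gene, with the 5 gates on the x axis (DC gate is the Fscn1+ gate) and the level in CPM on a linear y axis; points are libraries (blue control, orange EV) and black lines the mean of 4. Ctla4 and Tigit peak in Tregs, Cd160 in CD8 T cells, Btla in B cells and Cd274 in the Fscn1+ gate, and in CD4 T cells both Lag3 points of the EV group (14.7 and 10.9 CPM) lie above both control points (0.76 and 0.96).

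The genes whose levels ran most closely with a member over the 20 sums are given as a description, since the sums share libraries and gates. On log2(CPM + 1), Ctla4 ran with Gpr83, Sdcbp2 and Crmp1 (Pearson r from 0.973 to 0.974) and Tigit with Gm13481, Neb and B4galnt4 (0.930 to 0.955). Pdcd1 ran with Igsf23, Ptpn13 and Ly6c1 (0.948 to 0.958), Lag3 with Ksr1, Slc22a15 and Phactr2 (0.872 to 0.898) and Havcr2 with Frmd5, Cep112 and Fgl2 (0.878 to 0.906). Cd160 ran with Ifitm10, Cxcr6 and Sytl3 (0.930 to 0.946), and Btla with Xylt1, Prkce and F730311O21Rik (0.954 to 0.960). Among the ligands, Cd200 ran with Lgmn, Copg2 and St8sia4 (0.932 to 0.943), Cd274 with Abhd4, Rnh1 and Ube2l6 (0.962 to 0.964) and Pdcd1lg2 with Myo1e, Bmyc and Slc4a7 (0.943 to 0.953).

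Cells outside the gates held part of the Lag3, Cd160 and Havcr2 signal. These subsets were defined after the values of the gates had been seen. Among 147 cells with a UMI of Siglech, a marker of plasmacytoid dendritic cells, and none of Cd3e or Ncr1, 45.6% held Lag3, between 41.1% and 48.6% in each library, at 133 ± 17.4 CPM (SD, n = 4). Among 114 cells with a UMI of Ncr1, a natural killer cell receptor, and no Cd3e, 51.8% held Cd160, at 138 ± 64.6 CPM. They held 121 of the 734 Cd160 UMIs outside the gates. Most of these UMIs, 526, lay in ungated cells with a Cd3e UMI, in 328 of 4449 such cells, at 13.7 ± 0.33 CPM. Of 278 cells with a C1qa or Csf1r UMI, genes of macrophages, and none of Cd3e, Ncr1 or Siglech, 11.9% held Havcr2 (55.8 ± 21.7 CPM). That share ran from 2.94% to 19.4% between libraries. Of the 147 cells with Siglech, 10.9% held Havcr2.

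The question put to the EV comparison was whether checkpoint genes differed in any gate after iPSC EVs. UMIs summed per gate and library were compared, 2 EV against 2 control libraries, by a two-sided quasi-likelihood test in edgeR, and p-values were adjusted by Benjamini-Hochberg over all genes tested in the gate. The CPM given from here on are scaled within each gate and so differ slightly from the levels above. A permutation test on 2 against 2 libraries cannot reach a p below 0.333, so shares of cells are given as values without a test.

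In CD4 T cells, 3 members rose with EVs and none fell. They were Lag3 (14.4-fold), Cd200 (1.74-fold) and Btla (1.36-fold). Of all 11733 genes tested in this gate, 2.36% were called in either direction and 1.48% as higher. The 8 members tested had a median log2 fold change of 0.53, against 0.0012 over all genes tested. Among these 8, Lag3 passed the filter on low counts only through the EV libraries. Tigit and Havcr2 had too few UMIs to be tested (33 and 5 UMIs over the 4 libraries).

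Few Lag3 UMIs lay in control CD4 T cells, with 6 and 10 UMIs (0.73 and 0.90 CPM) in the control libraries, against 104 and 99 UMIs (14.1 and 10.3 CPM) in EV libraries 1 and 2. The groups did not overlap and the rise on the log2 scale was 3.85 (SE 0.32, edgeR adjusted p = 0.000247). Lag3 passed the filter on low counts only through the EV libraries. Without that filter its log2 fold change was also 3.85, which follows from the same counts and does not bear on that selection. The share of CD4 T cells with a Lag3 UMI was 0.466% (Wilson 95% interval 0.214 to 1.01) and 0.392% (0.180 to 0.852) in the controls and 3.57% (2.52 to 5.02) and 2.66% (1.89 to 3.73) in the EV libraries. These are 6 and 6 control cells and 31 and 32 EV cells. For comparison, 0.0400% to 0.232% of B cells, the gate with the lowest Lag3 level, held a UMI of it, at median depths of 4142 to 5811 UMIs per cell.

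Cells with more than 1 Lag3 UMI were more numerous in the EV libraries. They were 0 of 6 and 3 of 6 Lag3+ CD4 T cells in control libraries 1 and 2, against 20 of 31 and 19 of 32 in the EV libraries. With 6 Lag3+ cells in each control library, a rise in UMIs per Lag3+ cell could not be judged. In EV library 1 a single cell held 26 of the 104 UMIs. Without the cell richest in Lag3 in each library, an alternative added after the data were seen, the log2 fold change was 3.96 (edgeR adjusted p = 0.00028).

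EV cells were also deeper, with median UMIs of 6007 and 6978 in the control and 8363 and 7560 in the EV CD4 T cells. Lag3+ cells had medians of 7844.5 and 11670.5 in the control and 12281 and 11376 in the EV libraries. With each cell thinned to 2000 UMIs, Lag3 was still called, at a log2 fold change of 2.91 (edgeR adjusted p = 0.011) and 0.155% and 0.196% of control against 1.04% and 1.08% of EV cells. It was called in all 15 alternatives run for it in this gate, with log2 fold changes from 2.91 to 4.35.

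**Figure D3:**
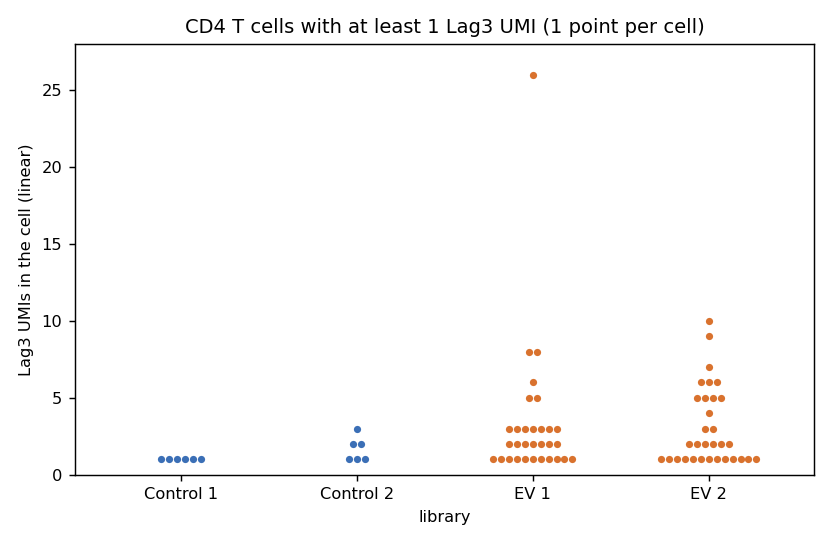
Each point is 1 CD4 T cell with at least 1 Lag3 UMI, placed by its library (x axis) and its number of Lag3 UMIs (linear y axis). The 6 and 6 control cells hold at most 3 UMIs, while the 31 and 32 EV cells reach 26 and 10.

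The CD4 T cells that held Lag3 in the EV libraries shared other members. Ctla4 was seen in 93.5% and 90.6% of the Lag3+ cells of EV libraries 1 and 2, against 16.0% and 12.8% of the Lag3- cells. For Cd200 the shares were 83.9% and 81.2% against 10.5% and 8.47%, and for Pdcd1 38.7% and 43.8% against 4.53% and 3.42%. Btla was seen in 90.3% and 84.4% against 64.4% and 64.8%. Tigit was rare in both, with 2 and 0 Lag3+ cells. These shares describe cells of the same libraries and carry no test.

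Other genes, chosen after their values were seen, were also frequent in these cells. Maf, a transcription factor of follicular helper and IL-10 producing T cells, was seen in 83.9% and 81.2% of Lag3+ against 10.0% and 6.76% of Lag3- cells. Icos, a costimulatory receptor of helper T cells, was seen in 93.5% and 100% against 36.8% and 32.1%. Izumo1r, the folate receptor FR4, was in 90.3% and 96.9% against 27.4% and 29.7%, and the cytokine gene Il21 in 29.0% and 28.1% against 0.239% and 0.257%. Eomes was seen in 0 and 1 of the Lag3+ cells and the plasmacytoid dendritic cell gene Siglech in 1 and 0.

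Lag3+ cells were deeper, so some of the partner genes were also read at equal depth. For the others, among them Btla, Icos and Il21, only shares at full depth are given. With cells thinned to 2000 UMIs for the partner gene, Ctla4 was seen in 58.1% and 43.8% of the Lag3+ cells of EV libraries 1 and 2, against 6.32% and 5.99% of the Lag3- cells. For Cd200 the shares were 38.7% and 46.9% against 3.22% and 2.99%, for Maf 45.2% and 68.8% against 4.53% and 3.68%, and for Izumo1r 54.8% and 68.8% against 11.2% and 12.4%. Pdcd1 differed between the libraries at this depth, with 7 of 31 and 0 of 32 Lag3+ cells against 1.67% and 1.28% of the Lag3- cells.

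**Figure D4:**
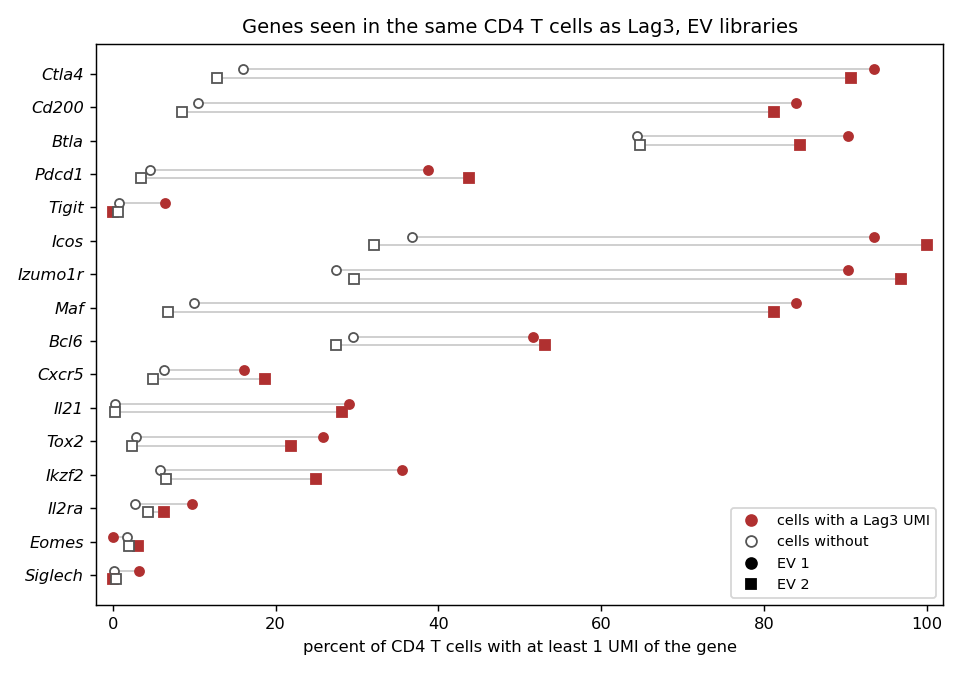
For each gene (y axis), filled red points give the percent (x axis) of Lag3+ CD4 T cells with a UMI of that gene and open points that of Lag3- cells, circles for EV library 1 and squares for EV library 2. Ctla4, Cd200, Maf, Icos and Izumo1r exceed 80% in Lag3+ cells, while Eomes, Tigit and Siglech stay under 7%.

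Cd200 in CD4 T cells stood at 22.4 and 18.7 CPM in the control and 35.4 and 35.8 CPM in the EV libraries. Both EV libraries were above both controls, a rise of 0.80 on the log2 scale (SE 0.12, edgeR adjusted p = 0.00531). The share of cells with a Cd200 UMI was 8.07% and 8.75% in the controls and 13.1% and 10.4% in the EV libraries. After thinning, the log2 fold change was 0.72 and Cd200 was not called (adjusted p = 0.11).

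Btla stood at 161 and 153 CPM in the control and 217 and 208 CPM in the EV libraries, a rise of 0.44 on the log2 scale (SE 0.09, edgeR adjusted p = 0.0247). Between 55.1% and 56.4% of control and 65.2% and 65.4% of EV cells held a UMI. The groups were apart by more than the spread within each, but Btla was not called after thinning (0.35, adjusted p = 0.16), without control library 1 (0.48, 0.22) or without control library 2 (0.41, 0.28).

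The other 5 members tested in CD4 T cells did not pass the adjusted threshold. Pdcd1 stood at 4.85 and 7.94 CPM in the control and 14.9 and 9.45 CPM in the EV libraries (log2 fold change 0.88, SE 0.26, edgeR adjusted p = 0.106). Ctla4 stood at 39.8 and 65.6 against 78.6 and 66.9 CPM (0.45, SE 0.17, adjusted p = 0.208). Control library 2 was close to EV library 2. The ligands Cd274 (0.30, SE 0.12) and Pdcd1lg2 (0.61, SE 0.26) gave adjusted p of 0.223 and 0.252. Cd160 ran the other way, at 4.61 and 3.34 against 1.08 and 2.28 CPM (-1.17, SE 0.41, adjusted p = 0.16).

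The 8 members tested in CD4 T cells all had groups that did not overlap, 7 with EV above and 1 below, where 49.7% of all genes did not overlap and 24.6% had EV above. All 8 had an unadjusted p under 0.05, as did 2082 of the 11733 genes. Lag3, counted among the 8, passed the filter on low counts only through the EV libraries, so its place in these counts follows in part from that filter. More CD4 T cells held UMIs of several of the receptors Pdcd1, Ctla4, Lag3, Tigit, Havcr2 and Cd160. The share with at least 2 of these 6 was 1.32% and 2.02% in the controls and 6.10% and 3.99% in the EV libraries. After thinning, 1 and 8 control cells and 13 and 11 EV cells held at least 2.

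Marker lists of other T cell types moved in the same gate. The summed CPM of 7 follicular helper markers was 227 and 251 in the control and 336 and 295 in the EV CD4 T cells, with none of the 7 at 0 in the EV libraries, and that of 7 Treg markers was 222 and 223 against 188 and 194, with Foxp3 at 0 by the gate. Their part in the result was not tested. With a stricter gate that, among other things, left out cells holding Il2ra or Ikzf2 UMIs, Lag3 gave a log2 fold change of 4.35.

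Genes around the checkpoint pathway were described from 3 lists. Of 16 transcription factors linked to checkpoint expression, all tested in CD4 T cells, 4 rose and none fell, with a list median log2 fold change of 0.60. Maf rose by 1.10 (SE 0.14, edgeR adjusted p = 0.00147), from 25.1 and 34.3 to 68.2 and 60.7 CPM. Tox2, a follicular helper factor, rose by 1.69 (SE 0.31), Eomes, a T-box factor, by 2.67 (SE 0.45) and Batf, an AP-1 factor, by 0.84 (SE 0.13). Of 15 tested signalling genes 3 rose, namely Inpp5d, the lipid phosphatase SHIP1 (0.43, SE 0.10), Cblb, an E3 ubiquitin ligase (0.61, SE 0.14) and Sh2d2a, a T cell adaptor (0.41, SE 0.10). Of 14 tested other receptors, ligands and partners, Entpd1, the ectonucleotidase CD39, rose (1.26, SE 0.29). The medians of the signalling and partner lists were 0.23 and 0.06.

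**Figure D5:**
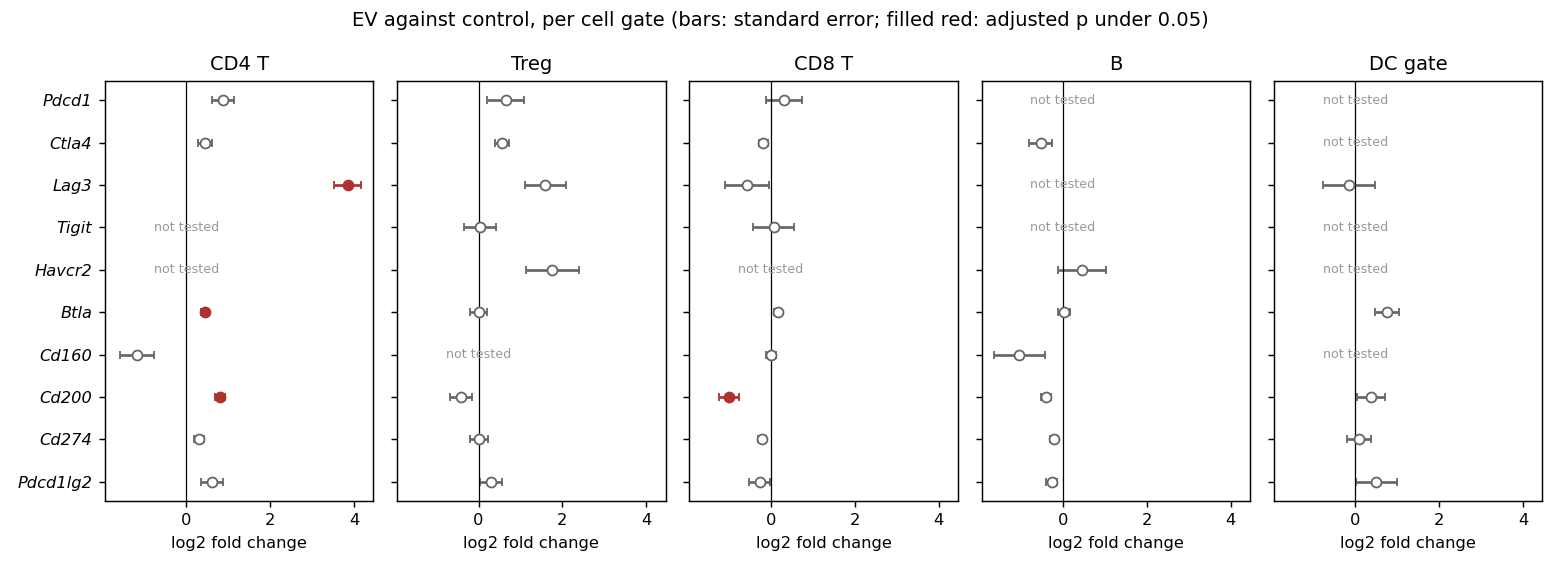
Each panel is 1 gate (DC gate is the Fscn1+ gate), with the log2 fold change of EV against control on the x axis and the genes on the y axis; bars are standard errors and filled red points passed an adjusted p of 0.05. Lag3 in CD4 T cells, at 3.85, lies farthest from 0, and the other filled points are Btla and Cd200 in CD4 T cells and Cd200 in CD8 T cells.

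In Tregs, none of the 9 members tested passed the adjusted threshold in edgeR, where 0.124% of 8876 genes did. DESeq2 called none either, but it gave no adjusted p for Pdcd1, Lag3 and Tigit. At an unadjusted p under 0.05 there were 3 of the 9, Ctla4, Lag3 and Havcr2, and 672 of the 8876 genes. Ctla4 stood at 530 and 630 CPM in the control and 1010 and 695 CPM in the EV Tregs (log2 fold change 0.56, SE 0.17, edgeR adjusted p = 0.337). Lag3 stood at 4.48 and 4.51 against 11.5 and 15.9 CPM (1.59, SE 0.49, adjusted p = 0.373), from 7, 6, 12 and 18 UMIs. Here too it passed the filter on low counts only through the EV libraries. For both Ctla4 and Lag3 the EV libraries lay above the controls. Of the 9 members, 4 had groups that did not overlap, where 37.1% of all genes did not.

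Havcr2 in Tregs differed between the EV libraries more than between the groups. It stood at 10.2 and 18.1 CPM in the control libraries, 86.2 in EV library 1 and 9.73 in EV library 2. The log2 fold change of 1.76 (SE 0.63) had an edgeR adjusted p of 0.497, and it was -0.52 without EV library 1. In that library 15 of 117 Foxp3+ cells held 90 Havcr2 UMIs, and 2 cells held 35 and 20 of them. Over all libraries 37 Foxp3+ cells held Havcr2. Each of them also held Ctla4, Icos and Maf, 86.5% held Itgae, the integrin CD103, against 21.7% of the other Foxp3+ cells, and 40.5% held Klrg1 against 4.18%. For Icos and Maf the shares in the other Foxp3+ cells are not given here. Ctla4 was seen in 71.0% of all control and 77.7% of all EV cells of this gate (means of 2 libraries). Havcr2+ cells were deeper, with median UMIs of 9298 and 8866 (control) and 11038 and 7508.5 (EV). The other Foxp3+ cells had 6469.5, 6966, 7796.5 and 7062. These shares are not given at equal depth. None of the Havcr2+ cells held the macrophage genes C1qa or Csf1r. These partner genes were chosen after their values were seen.

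No gene of the 3 surrounding lists was called in Tregs. Pdcd1 (12.16 and 12.04 against 27.8 and 10.6 CPM), Tigit, Btla, Cd274 and Pdcd1lg2 had log2 fold changes from 0.0056 to 0.65 and Cd200 of -0.42, with adjusted p from 0.779 to 0.998. Cd79b was seen in 14.1% and 8.14% of the control and 17.9% and 13.4% of the EV cells of this gate. With a stricter gate that also left out cells holding Cd79a or Cd8a UMIs, the log2 fold changes of Btla and Cd274, which B cells also express, were -0.26 and -0.22, and neither was called. Cd160 was not tested.

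In CD8 T cells Cd200 was called as lower with EVs and no other member was called. It stood at 8.09 and 5.95 CPM in the control and 3.54 and 3.44 CPM in the EV libraries (log2 fold change -0.998, SE 0.23, edgeR adjusted p = 0.0448), where 2.2% of 12284 genes were called in either direction and 0.855% as lower. The share of cells with a Cd200 UMI was 3.63% and 3.55% against 2.59% and 2.66%. The call was lost with DESeq2 (adjusted p = 0.16), after thinning (0.47), with another cell filter (0.13) and without control library 1 (0.32).

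Cd160, for which this gate had the highest level of the 5 gates, differed by less than the spread between libraries. It stood at 22.2 and 23.6 against 24.4 and 21.7 CPM (log2 fold change 0.0037, SE 0.11, edgeR adjusted p = 0.99). Lag3 stood at 1.44 and 0.65 against 0.59 and 0.76 CPM (-0.56, SE 0.52, adjusted p = 0.609), from 19, 11, 6 and 10 UMIs. The other 6 members tested gave log2 fold changes from -0.26 to 0.31 and Havcr2 was not tested. Of the 9 tested, 5 had groups that did not overlap (49.7% of all genes). In the same cells Eomes rose by 1.10 (SE 0.11, adjusted p = 0.000535), Tbx21, which encodes T-bet, by 0.87 (SE 0.14), Batf by 0.77 (SE 0.16) and Nt5e, the ectonucleotidase CD73, by 0.68 (SE 0.11), out of 15 factors and 15 partners tested. No member of the signalling list was called. The summed CPM of 6 effector or memory markers was 1065 and 1045 in the controls and 1454 and 1226 in the EV libraries. The part of such cells in the Cd200 result was not tested.

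B cells gave no call among 7 members tested, where 2.55% of 13270 genes were called in edgeR, and DESeq2 called none of them. Pdcd1, Lag3 and Tigit had too few UMIs to be tested. Cd200 stood at 93.5 and 70.5 CPM in the control and 58.4 and 65.3 CPM in the EV libraries (log2 fold change -0.41, SE 0.13, edgeR adjusted p = 0.148), the only member of the 7 with an unadjusted p under 0.05, as 2512 of the 13270 genes had. Btla, the most abundant member of B cells by UMIs, stood at 794 and 717 against 676 and 861 CPM (0.02, SE 0.14, adjusted p = 0.947), so the groups overlapped. Pdcd1lg2 (-0.27, SE 0.13) and Cd274 (-0.21, SE 0.10) gave adjusted p of 0.281 and 0.295. Of the 7 members 5 had EV below and none above, where 51.8% of all genes did not overlap and 3483 of the 13270 had EV below. Among these 5, Cd160 (7 and 9 control and 12 and 4 EV UMIs) passed the filter on low counts only through the control libraries. Ctla4, also among them, went from a log2 fold change of -0.53 to -0.025 with stricter gates. In the surrounding lists Cd5, an inhibitory receptor, fell by 1.36 (SE 0.22), Tox by 1.30 (SE 0.27) and Irf4 by 0.57 (SE 0.11), while Bcl6 rose by 0.53 (SE 0.11), with edgeR adjusted p from 0.0223 to 0.0496. The summed CPM of 5 T cell markers in the gate was 76.9 and 58.0 in the controls and 31.1 and 27.9 in the EV libraries, and its part in the fall of Cd5 and Tox was not tested.

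The Fscn1+ gate gave no call among 5 members tested, where 0.148% of 7421 genes were called in edgeR, and DESeq2 called none of them. Btla stood at 168 and 97.5 CPM in the control and 246 and 194 CPM in the EV libraries (log2 fold change 0.75, SE 0.28, edgeR adjusted p = 0.448), the only member of the 5 with groups apart (36.6% of all genes) and with an unadjusted p under 0.05 (567 of the 7421 genes). Cd274 stood at 122 and 177 against 193 and 129 CPM (0.08, SE 0.28, adjusted p = 0.983). Lag3 stood at 23.4 and 10.5 against 12.3 and 16.1 CPM (-0.16, SE 0.62, adjusted p = 0.984). With 72 to 123 cells a library, the standard errors of 0.28 to 0.62 set what could be seen here.

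The EV effects were then compared between gates in 1 fit over the 20 sums, each gate against CD4 T cells. The Lag3 effect was smaller by 4.38 log2 units in CD8 T cells, with an SE of 0.63 and an edgeR adjusted p of 0.00103, by 4.11 in B cells (SE 0.72, 0.00186) and by 3.95 in the Fscn1+ gate (SE 0.70, 0.0128). Within the B cell gate Lag3 had too few UMIs to be tested (8 and 6 control, 10 and 13 EV). It entered this fit through its counts in other gates, so its B cell value rests on counts near the floor. For Cd200 the effect was smaller by 1.80 in CD8 T cells (SE 0.26, 0.00103) and by 1.18 in B cells (SE 0.15, adjusted p = 4.8e-05). Against Tregs no member passed, with -2.17 for Lag3 (SE 0.70, adjusted p = 0.576) and -1.16 for Cd200 (SE 0.30, 0.26), so a difference between Tregs and CD4 T cells was not detectable. Of all 13782 genes, 0.0871% differed in effect between CD8 and CD4 T cells, 1.25% between B and CD4 T cells, 0.196% between the Fscn1+ gate and CD4 T cells and 0.131% between Tregs and CD4 T cells. After thinning to 2000 UMIs, Cd200 in B cells remained past the threshold and the other 4 did not.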

How the data were processed

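Lymph node cells of 4 libraries were analysed. Per the labels and the study's methods, the authors made 10x 3′ libraries and deposited raw UMI counts from Cell Ranger 7.1.0 (mm10), unnormalised, for 32285 genes. No annotation of cell types was used, and every column of the files was mapped to a sample (0 unused).

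Cells were filtered and gated as given above. Counts were summed per gate and library and tested with edgeR 4.0.16 (TMM, filterByExpr, quasi-likelihood, Benjamini-Hochberg, threshold 0.05) in R 4.3.3. Doublets marked by Scrublet (scanpy 1.11.5) were kept and removed only in an alternative. Thinning drew 2000 UMIs per cell. Intervals and floors cover counting error only. Replicate numbers were not treated as pairs, since same-numbered libraries did not deviate together (r from -0.07 to 0.08). Alternatives were DESeq2 1.42.0, other scalings, filters and gates, the replicate block and leaving out each library. Leaving out the cell richest in Lag3 or Havcr2 was added after the data were seen. Scripts were tested on simulated data.

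The members and lists were chosen with earlier results of these data known. Named genes were all members, list genes called in a gate, and the 3 genes most correlated with each member. Other partner genes named for Lag3+ and Havcr2+ cells were chosen after their values were seen. Promoters were from RefSeq (GRCm38.p6) and gene models from GENCODE vM21. Some list genes and part of the definition of the stricter gates are not reported here.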

Additional observations from a re-analysis of the deposited data

Results flagged for a closer look

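In 5 cases the effect of EVs on a member differed between a gate and CD4 T cells by a test of the difference itself (edgeR, over the 20 sums). For Lag3 the log2 difference of effects was -4.38 in CD8 T cells, -4.11 in B cells and -3.95 in the Fscn1+ gate. Over the alternatives that kept all 4 libraries these ranged from -4.89 to -2.38, from -4.15 to -2.42 and from -4.01 to -2.53. Leaving out 1 library gave -5.10 to -3.67, -4.64 to -3.62 and -4.66 to -3.24. With both kinds counted, they were past the threshold in 10, 9 and 7 of 12 alternatives. For Cd200 the log2 difference was -1.80 in CD8 T cells (11 of 12 alternatives past the threshold) and -1.18 in B cells (12 of 12). The Lag3 counts outside CD4 T cells were low, with 6 to 19 UMIs in a library of CD8 T cells and 6 to 13 in a library of B cells. Lag3 was not tested within the B cell gate.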

How the results depend on the processing

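With 2 libraries a group, an arm left with 1 library was assumed to vary like the other arm. Of the CD4 T cell members, Lag3 was called under all 15 alternatives, Cd200 under 14 and Btla under 12. For the cases below the cause was not tested. Leaving out filterByExpr gave 6 members called in CD4 T cells, 2 in Tregs and 1 in B cells. Calls over all genes rose as well, to 825, 154 and 1392 in these gates from 277, 11 and 338. It also gave 1 and 6 members whose EV effect differed from CD4 T cells in Tregs and B cells. For effect differences, the share over all genes under this and the other alternatives is not given here. Those counts are therefore no result about the members. The replicate block, with numbers that did not pair the libraries, gave 5, 1 and 1 members called in CD4 T cells, Tregs and B cells. Over all genes it called 878, 112 and 1182 in these gates against 277, 11 and 338. Thinning gave 1 member in CD4 T cells and 0 in CD8 T cells, and 0, 1 and 0 effect differences for CD8 T cells, B cells and the Fscn1+ gate. Over all genes, thinning called 98 in CD4 T cells against 277, and 216 in CD8 T cells against 270. Cells without upper limits and under 5% mitochondrial UMIs gave 5 members in CD4 T cells (321 of all genes) and 0 in CD8 T cells (120 of all genes). DESeq2 gave 0 in CD8 T cells (162 of all genes), and stricter gates left 1 and 0 effect differences for B cells and the Fscn1+ gate. In CD8 T cells DESeq2 gave no adjusted p for Pdcd1, Lag3 and Tigit.

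Leaving out 1 library gave 2 to 7 members called in CD4 T cells, 0 to 2 in Tregs, 0 to 1 in CD8 T cells, 0 to 2 in B cells and 0 to 1 in the Fscn1+ gate. Effect differences were 0 to 1 for Tregs, 1 to 3 for CD8 T cells, 1 to 3 for B cells and 0 to 1 for the Fscn1+ gate. The most calls in CD4 T cells came without EV library 2 and the fewest without control library 1. Numbers of genes called over all genes are given for the alternatives that kept all 4 libraries. They ranged from 98 to 878 in CD4 T cells, 0 to 154 in Tregs and 120 to 1018 in CD8 T cells. In B cells they ranged from 234 to 1392 and in the Fscn1+ gate from 0 to 95. They are no background to the member counts without 1 library.

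Under these alternatives signs turned in values of members that had not been called. In Tregs, Btla was -0.041 with the replicate block, -0.078 thinned, -0.22 without doublets, -0.26 with stricter gates and -0.013 without the cell richest in Havcr2. Cd274 was -0.27 thinned, -0.057 without doublets, -0.22 with stricter gates and -0.027 without that cell, and Tigit -0.014, -0.18 and -0.14 under the last 3. Cd200 was 0.059 without upper limits. In CD8 T cells, Cd160 was -0.014 by total UMIs, -0.12 thinned and -0.00076 without doublets, and Pdcd1lg2 0.090 thinned. In B cells, Btla was -0.022 by total UMIs, -0.0019 thinned and -0.054 without upper limits. In the Fscn1+ gate, Lag3 was 0.41 and Cd200 -0.016 without upper limits, and Cd274 -0.016 with stricter gates. Leaving out 1 library gave, in Tregs, -0.19 to 1.2004 for Pdcd1, -0.33 to 0.48 for Tigit, -0.52 to 2.63 for Havcr2, -0.44 to 0.34 for Btla and -0.19 to 0.20 for Cd274. In CD8 T cells it gave -1.06 to 0.063 for Lag3, -0.073 to 0.089 for Cd160, -0.38 to 0.37 for Tigit and -0.61 to 0.057 for Pdcd1lg2. In B cells it gave -0.11 to 1.41 for Havcr2 and -0.16 to 0.19 for Btla, and in the Fscn1+ gate -0.69 to 0.44 for Lag3, -0.23 to 0.41 for Cd274 and -0.0025 to 0.81 for Cd200.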

Other observations

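Barcodes above the upper limits on genes or UMIs entered no comparison. There were 585 of them, and 14.0% held a Lag3 UMI (169 UMIs in 82 barcodes), 10.9% a Havcr2 UMI and 18.1% a Cd160 UMI. Between libraries the share with Lag3 ran from 12.4% to 18.0%. Such barcodes can hold more than 1 cell, so these values were not tied to a cell type.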
